A study of Mus musculus with 12 samples.

Results

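The enzymes that write, copy and erase DNA methylation were examined in bulk RNA-seq of sorted mouse Lin-Sca+Kit+ (LSK) cells from bone marrow, a fraction rich in haemopoietic stem and multipotent progenitor cells. The set of 9 genes was named by symbol, without reference to expression values in the rule itself: Dnmt1, Uhrf1, Dnmt3a, Dnmt3b, Tet1, Tet2, Tet3, Idh1 and Idh2. They are 9 of 56748 gene identifiers counted, and 9 of 9 were among the 18438 genes that passed the filter on low counts, with 701 to 31340 counts in every library. Cells came from SCLtTA/BCR-ABL double transgenic (DTG) mice, in which the Scl enhancer drives a tetracycline-repressed activator and human BCR::ABL1 is expressed in primitive blood cells once tetracycline (TET) is taken away. All recipients were irradiated B6.SJL (CD45.1) mice, aged 8 to 12 weeks in the labels, that received CD45.2 DTG marrow from a single frozen donor pool and TET at first. The CTRL group (n = 6 libraries) stayed on TET, and in the CML 2wk group (n = 6 libraries) TET was withdrawn for 2 weeks before donor LSK cells were sorted. Both groups therefore carry the transgenes, the irradiated host and TET exposure, and the libraries of a group share 1 donor pool, so p-values measure the spread between recipients of that pool.

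Depth was 22804754 to 41832868 counts per CTRL library and 16150817 to 25070105 per CML 2wk library. Mitochondrial genes took 0.816% to 1.29% of counts in CTRL and 2.26% to 2.97% in CML 2wk. The biological coefficient of variation was 10.8% in CTRL and 32.6% in CML 2wk. Tested stromal genes summed to 3054 CPM in CML 2wk replicate 2 and 656 CPM in replicate 4, against 178 to 216 CPM in the other CML 2wk libraries, and the effect of leaving both out is given with the cell type markers. The labels give CTRL as male and CML 2wk as female, so the labelled sex and BCR::ABL1 cannot be told apart. The sorted cells came from a donor pool of both sexes, and the labels do not say whether the sex given is that of donor or recipient. Xist, the RNA of the inactive X chromosome, was counted at 4060 CPM (counts scaled to library size) in the group labelled male and 2787 CPM in the other. Library numbers form separate runs for replicates 1 to 5 of each group, and replicate 6 is the one number whose 2 libraries, of both groups, fall in the same run.

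DNA methylation in mammals is placed mainly on cytosines followed by guanine (CpG sites). DNMT3A and DNMT3B set new marks, and DNMT1, guided by UHRF1 to DNA with 1 methylated strand behind the replication fork, copies existing marks to the daughter strand. TET1, TET2 and TET3 oxidise methylated cytosine, the first step of demethylation, and use 2-oxoglutarate, which IDH1 in the cytosol and IDH2 in mitochondria produce from isocitrate. In blood, DNMT3A, TET2, IDH1 and IDH2 are best known as genes mutated in clonal haemopoiesis and myeloid leukaemia.

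The start regions of the genes are shown first because Dnmt1 and Uhrf1, the copying pair, hold letters of a replication-linked motif. Those of Tet1 and Tet2 are shown because they differ in CpG content. RefSeq windows on GRCm38.p6 were found for 9 of 9 genes (15 windows, each the 250 bases before an annotated start). The letters TTTCCCGC, TTTCGCGC, TTTGCCGC and TTTGGCGC, forms of the site read by E2F factors, were searched on both strands and occurred in 2 of these windows, 1 of Dnmt1 and 1 of Uhrf1, and in 1.86% of all 32851 windows of this length. The 30 bases around each match follow, with the match in capitals. The Dnmt1 stretch lies on the minus strand at chr9:20952824-20952853, inside an untranslated first-exon part of an annotated Dnmt1 transcript, and the Uhrf1 stretch lies on the plus strand at chr17:56304117-56304146, inside the gene but outside annotated exons.
Dnmt1: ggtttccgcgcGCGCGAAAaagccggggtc
Uhrf1: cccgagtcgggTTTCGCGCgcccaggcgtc

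Neither match overlaps a CCAAT box in its window, and CCAAT itself was in 33.8% of all windows. Letters of E-box, STAT5 and NRF1 sites were searched too. An E-box was in 1 Dnmt3a window and in 6.02% of all windows, and the others were in no window of the 9 genes. The E2F letters contain CpG or are rich in G and C, and their matches lay in windows with 26 (Dnmt1) and 30 (Uhrf1) CpG sites. The share of matches among windows of like CpG content was not taken. The Tet2 window held 51 CpG sites and the Tet1 window 15, where the median of all windows was 6. Over the windows of the 9 genes the count ran from 2, in a Dnmt1 window, to 51. CpG counts did not follow the direction of change among the 9 genes. Of genes that fell, Dnmt3a held 38, 40 and 15 CpG sites in its windows and Dnmt1 held 2, 7 and 26. Idh1, which rose, held 18 and 22. The 80 bases directly before each start follow, with CpG sites in capitals, for Tet1 on the minus strand at chr10:62887325-62887404 and for Tet2 on the minus strand at chr3:133544391-133544470. Both stretches lie inside the gene as annotated in GENCODE M21 and outside its exons, and they held 6 and 16 CpG sites.
Tet1: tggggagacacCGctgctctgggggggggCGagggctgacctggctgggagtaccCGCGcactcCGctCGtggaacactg
Tet2: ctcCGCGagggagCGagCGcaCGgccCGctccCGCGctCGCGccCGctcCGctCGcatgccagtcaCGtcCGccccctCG
The methylation of these sites was not measured in this series, and a match is a description of letters only.

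In CML 2wk cells, transcripts of both copying factors, both de novo methyltransferases, Tet1 and Tet3 fell, while Tet2 and Idh1 rose and Idh2 did not pass the test. By the quasi-likelihood test of edgeR, with p-values adjusted by Benjamini and Hochberg's method across every gene tested and a threshold of 0.05, 6 of the 9 genes were lower, where 29.0% of all genes tested were called lower, and 2 were higher, where 30.6% were called higher. In 6 genes every CML 2wk library was below every CTRL library, against 20.6% of all genes, and in 2 every CML 2wk library was above, against 17.0%. The groups were thus apart in 8 of the 9 genes, and in 37.6% of all genes tested. Their median log2 fold change (CML 2wk minus CTRL) was −0.68, and that of all genes tested was 0.07. Since 59.5% of all genes were called in 1 direction or the other, a call by itself does not set a gene apart here. In bulk RNA, fewer cells of a type and less RNA per cell cannot be told apart.

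**Figure D1:**
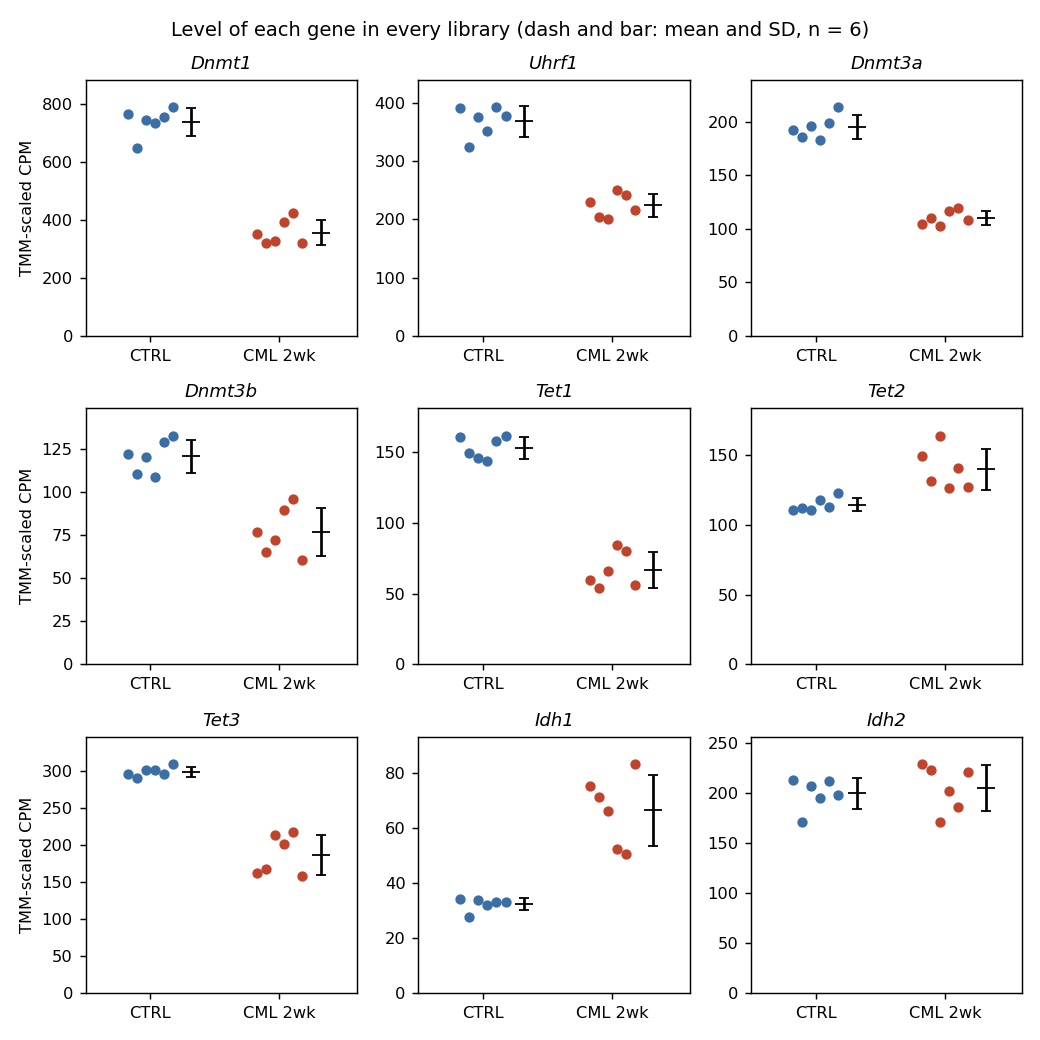
Level of each of the 9 genes in every library, in CPM scaled with edgeR's TMM factors, for 6 CTRL (blue) and 6 CML 2wk (red) libraries, with the mean and SD as dash and bar. The groups are apart in every panel except Idh2, and Dnmt1 lies between 648 and 790.1 CPM in CTRL and between 321 and 425 CPM in CML 2wk.

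Dnmt1, the methyltransferase that copies methylation at replication, was lower in every CML 2wk library. Its lowest, median and highest CTRL levels were 648, 750.1 and 790.1 CPM, and those of CML 2wk were 321, 341 and 425 CPM. The groups did not overlap, and CTRL replicate 2 was the lowest of its group. Dnmt1 fell 2.07-fold, from 739.9 ± 49.1 to 357 ± 43.2 CPM (SD, n = 6 each), a log2 fold change of −1.05 (SE 0.0818, adjusted p = 1.36e-07).

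Uhrf1, which reads CpG sites methylated on 1 strand and recruits DNMT1, ranged from 324 over a median of 376 to 392 CPM in CTRL. In CML 2wk it ranged from 201 over a median of 223 to 250.5 CPM. It was lower in every CML 2wk library than in any CTRL library and fell 1.64-fold (log2 −0.72, SE 0.0720, adjusted p = 1.09e-06). Uhrf1 fell less than Dnmt1: the log2 ratio of Uhrf1 to Dnmt1 within a library was −1.01 ± 0.0499 in CTRL and −0.67 ± 0.0833 in CML 2wk (SD, n = 6 each), and the difference of 0.34 had an exact permutation p of 0.00216, the smallest that 6 against 6 allow, or 0.00253 adjusted over the 7 ratios compared. With trends of GC content and length removed, that difference was 0.14 (exact permutation, adjusted p = 0.0152).

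Both genes were also compared with the mean of 32 genes of DNA replication. That mean was 6.97 ± 0.0875 log2 CPM in CTRL and 6.98 ± 0.105 in CML 2wk (SD, n = 6 each), with overlapping ranges. Against it, the log2 ratio of Dnmt1 went from 2.55 ± 0.0430 to 1.495 ± 0.165 and that of Uhrf1 from 1.55 ± 0.0287 to 0.82 ± 0.112, and neither overlapped between groups (exact permutation p = 0.00216 each, adjusted 0.00253). The differences were −1.06 and −0.72 on the log2 scale, relative to a mean over genes that were called in both directions. Because that mean differed by only 0.0037 between groups, they restate the log2 fold changes of Dnmt1 (−1.05) and Uhrf1 (−0.72). They are no separate support for those falls, and 37.6% of all single genes tested also had groups apart. With GC and length trends removed the values were −0.67 and −0.53.

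Of the 32 replication genes, 9 were higher, 16 lower and 7 not called, with a median log2 fold change of −0.13, where 30.6% of all genes were higher and 29.0% lower. With upper-quartile factors 11 were higher and 10 lower, where 6352 and 4752 of all 18438 genes tested were. With GC and length trends removed 8 were higher and 5 lower, where 5058 and 4182 of all 18438 genes were. Ccne2, a cyclin of S-phase entry, rose 1.16 on the log2 scale (adjusted p = 4.22e-06), and Rrm2, a subunit of ribonucleotide reductase, rose by 0.78 (adjusted p = 7.36e-06). Clspn, a replication checkpoint adaptor, and Cdt1, which licenses origins, had log2 fold changes of −0.65 and −0.64 (adjusted p = 4.44e-06 and 1.42e-06). Of 22 genes of G2 and mitosis, 4 were higher, 12 lower and 6 not called (median −0.43), against the same shares of all genes. Mki67, the proliferation marker, went from 1584 ± 122 to 608 ± 81.0 CPM (SD, n = 6 each, log2 −1.38, adjusted p = 4.27e-08), and Cenpf, a kinetochore protein, changed by −0.92, while Bub1 (0.42) and Cdk1 (0.39) rose.

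Dnmt3a, a de novo methyltransferase and the one most often mutated in clonal haemopoiesis, had CTRL levels from 183 over a median of 194 to 214 CPM. In CML 2wk it ran from 103 over 109.6 to 119 CPM, with the narrowest spread of the 9 genes in that group (SD of log2 CPM 0.0845, and 0.0809 in CTRL). The groups did not overlap, and Dnmt3a fell 1.77-fold (log2 −0.82, SE 0.0579, adjusted p = 6.63e-08).

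Dnmt3b, the other de novo enzyme, had lowest, median and highest levels of 109, 121 and 133 CPM in CTRL and 60.7, 74.4 and 95.9 CPM in CML 2wk. Replicates 4 and 5 were the highest of the CML 2wk group and still below every CTRL library. It fell 1.57-fold (log2 −0.65, SE 0.104, adjusted p = 8.02e-05). The ratio of Dnmt3b to Dnmt3a overlapped between groups, at −0.69 ± 0.0487 log2 in CTRL and −0.54 ± 0.211 in CML 2wk (SD, n = 6 each), and the difference of 0.15 did not pass the test (exact permutation p = 0.115). It was 0.21 without CML 2wk replicate 6 (exact permutation, adjusted p = 0.0238) and −0.021 with GC and length trends removed.

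Among the TET dioxygenases the 3 genes did not move together. Tet1 had the largest log2 fall of the 9 genes: from 144, 153 and 162 CPM (lowest, median, highest in CTRL) to 54.1, 63.0 and 84.6 CPM in CML 2wk. No CML 2wk library came near the CTRL range, and replicates 4 and 5 were the highest of their group. The fall was 2.29-fold (log2 −1.20, SE 0.105, adjusted p = 3.36e-07).

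Tet2, the TET enzyme most often mutated in myeloid disease, rose slightly. It lay at 111, 113 and 123 CPM in CTRL and at 127, 136 and 164 CPM in CML 2wk, so that the groups were apart by a few CPM. The rise was 1.22-fold (log2 0.29, SE 0.0679, adjusted p = 0.00195). With library number run as a term, where the group difference rests on replicate 6 alone (123 CPM in CTRL and 127 CPM in CML 2wk), it was 0.05 (adjusted p = 0.857), and the call was lost.

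Tet3 was tightly grouped in CTRL, at 291, 299 and 310.0 CPM (SD of log2 CPM 0.0321), and wider in CML 2wk, at 158, 185 and 218 CPM (SD 0.210). The groups did not overlap, and the fall was 1.602-fold (log2 −0.68, SE 0.0843, adjusted p = 7.94e-06). With GC and length trends removed it was −0.11 (adjusted p = 0.441), and the call was lost.

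The balance within the family therefore differed between groups. The log2 ratio of Tet1 to Tet2 was 0.42 ± 0.0834 in CTRL and −1.08 ± 0.310 in CML 2wk, a difference of −1.502, and that of Tet3 to Tet2 was 1.39 ± 0.0407 and 0.41 ± 0.205, a difference of −0.98 (SD, n = 6 each, exact permutation p = 0.00216 and adjusted 0.00253 for both). Tet1 and Tet3 were below, and Tet2 above, every CTRL library in each CML 2wk library, so both ratios had to come apart. Their p-values restate the single-gene results and are no separate support for them. Per kilobase of exon, Tet1 was above Tet2 in 6 of 6 CTRL libraries and below it in 6 of 6 CML 2wk libraries, whereas by the longest transcript Tet2 ranked above Tet1 in CTRL as well. On the exon scale, Tet2 made up 18.9% to 20.3% of the summed TET level in CTRL and 29.99% to 39.4% in CML 2wk, Tet1 27.1% to 29.9% and 15.9% to 21.8%, and Tet3 51.2% to 53.1% and 43.4% to 49.1%. With GC and length trends removed, the difference was −1.56 for Tet1 to Tet2 and −0.65 for Tet3 to Tet2.

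**Figure D2:**
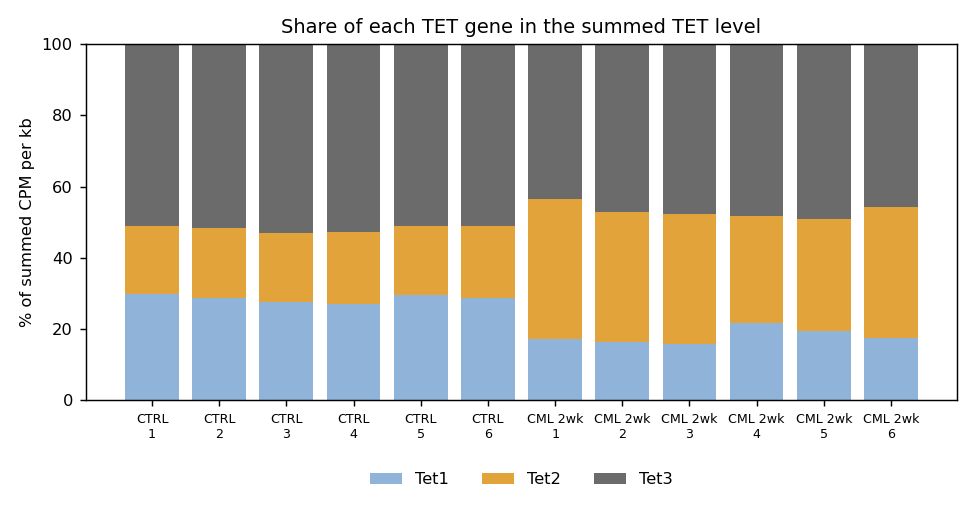
Share of Tet1, Tet2 and Tet3 in the summed TET level of each library, in percent of CPM per kilobase of exon, for 6 CTRL and 6 CML 2wk libraries. The Tet2 share is 18.9% to 20.3% in CTRL and 29.99% to 39.4% in CML 2wk, and on this exon scale Tet3 is the largest share in every library.

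Idh1, the cytosolic isocitrate dehydrogenase, rose in every CML 2wk library. Its CTRL levels were 27.8, 33.1 and 34.2 CPM (lowest, median, highest) and its CML 2wk levels 50.4, 68.7 and 83.2 CPM, without overlap. Replicates 4 and 5, which had the highest Dnmt1, Dnmt3b and Tet1 of the group, had its lowest Idh1. The rise was 2.05-fold (log2 1.04, SE 0.114, adjusted p = 2.65e-06).

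Idh2, the mitochondrial enzyme, lay at 171, 202 and 213 CPM in CTRL and at 171, 211 and 229 CPM in CML 2wk. The ranges overlapped in part, with CML 2wk replicates 1, 2 and 6 (229, 223 and 221 CPM) above the highest CTRL library. The log2 fold change of 0.04 (SE 0.0805, adjusted p = 0.678) did not pass the test. The log2 ratio of Idh1 to Idh2 went from −2.62 ± 0.0308 to −1.64 ± 0.238 (SD, n = 6 each), a difference of 0.98 (exact permutation p = 0.00216, adjusted 0.00253), and 0.56 with GC and length trends removed. Per length, Idh1 was 12.8% to 13.5% of the summed IDH level in CTRL and 19.5% to 26.6% in CML 2wk.

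**Figure D3:**
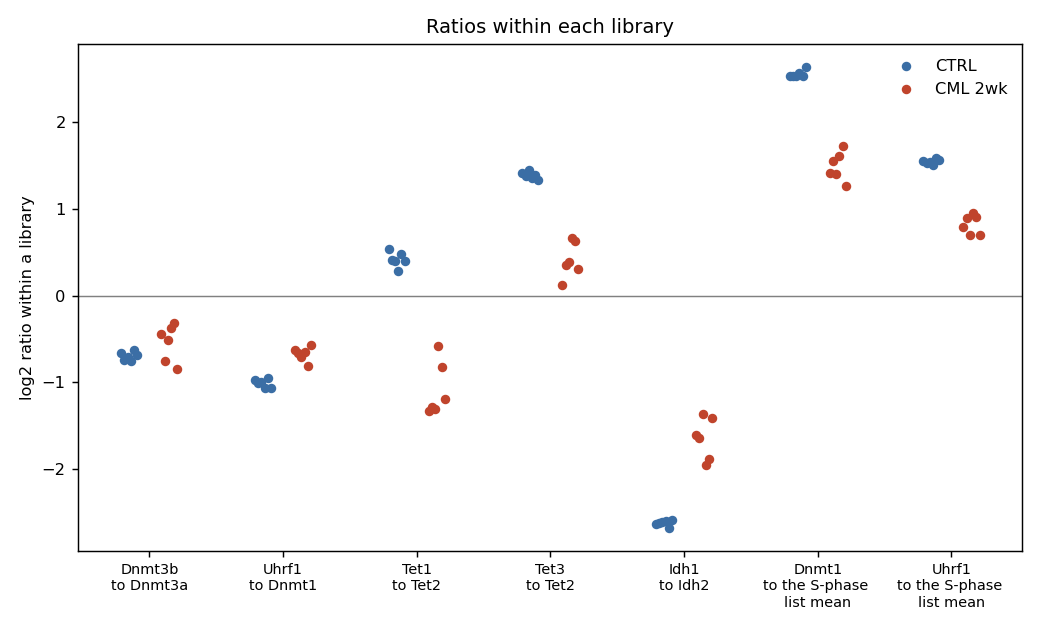
Log2 ratios of CPM within each library for 5 gene pairs and for Dnmt1 and Uhrf1 against the mean of 32 replication genes, with 6 CTRL (blue) and 6 CML 2wk (red) points each. Groups overlap only for Dnmt3b to Dnmt3a, and Tet1 to Tet2 changes sign between groups. The ratios are not scaled by gene length, so the sign does not rank the genes, and no share over other gene pairs was taken.

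Gene composition moved with these results. Removing trends of fold change with GC content and exon length, a setting chosen after the data had been seen, gave log2 fold changes of −0.57 for Dnmt1, −0.44 for Uhrf1, −0.32 for Dnmt3a and −0.32 for Dnmt3b, with adjusted p of 0.000216, 0.000364, 0.00248 and 0.0310. It gave −1.02 for Tet1, 0.53 for Tet2, 0.76 for Idh1 and 0.18 for Idh2 (adjusted p = 3.35e-06, 0.000120, 3.04e-05 and 0.0517). The 4 methyltransferase and UHRF1 genes thus kept their direction and call at smaller values. The longest transcripts of Dnmt1, Uhrf1, Dnmt3a, Dnmt3b, Tet3 and Idh2 are 51.9% to 55.6% GC, and those of Tet1, Tet2 and Idh1 43.7% to 45.4%. Whether the trend is technical was not tested.

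**Figure D4:**
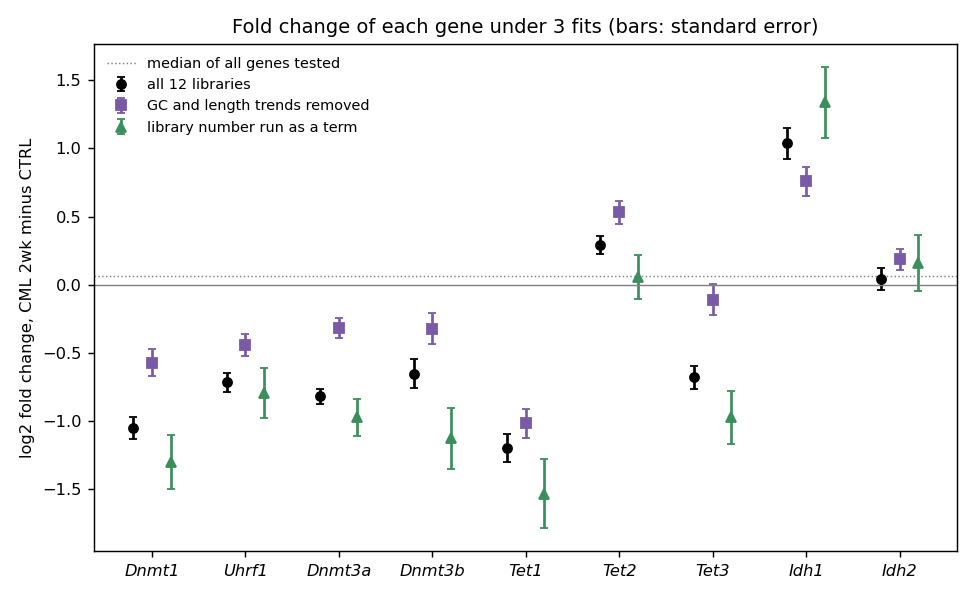
Log2 fold change (CML 2wk minus CTRL) of the 9 genes with its standard error under the fit over all 12 libraries (black), with GC and length trends removed (purple) and with library number run as a term (green). Tet3 moves from −0.68 to −0.11 without the trends, Tet2 from 0.29 to 0.05 with the run term, and all 9 genes keep their direction in all 3.

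Per kilobase of exon, the scale on which genes can be compared, Dnmt1 (100.3 ± 6.66 CPM per kb), Uhrf1 (86.4 ± 6.21) and Idh2 (77.0 ± 6.08) led in CTRL (SD, n = 6 each), and each overlapped with the next. Dnmt3b (23.6 ± 1.87) and Tet3 (17.9 ± 0.400) followed apart from their neighbours, then Dnmt3a (11.7 ± 0.666), Idh1 (11.7 ± 0.846) and Tet1 (9.90 ± 0.504), of which neighbours overlapped, and Tet2 was lowest and apart (6.79 ± 0.281). In CML 2wk, Idh2 (79.3 ± 8.89) stood alone at the top, and Uhrf1 (52.6 ± 4.74) and Dnmt1 (48.4 ± 5.86) overlapped below it. Idh1 (24.0 ± 4.69), Dnmt3b (15.02 ± 2.68), Tet3 (11.2 ± 1.63) and Tet2 (8.30 ± 0.871) formed a chain of overlapping neighbours, with Dnmt3a (6.63 ± 0.390) and Tet1 (4.32 ± 0.827) each apart at the bottom. Between CTRL and CML 2wk, 8 of the 9 ranks differed and only that of Uhrf1 did not. Idh1 went from rank 7 to 4, Dnmt1 from 1 to 3, Idh2 from 3 to 1, Dnmt3a from 6 to 8, Tet2 from 9 to 7 and Tet1 from 8 to 9. By the longest transcript, Tet1 was already at rank 9 in CTRL.

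Of 17 partners and regulators of the DNA methyltransferases, 15 were tested, 13 were lower and 2 higher (median log2 fold change −0.41), where 29.0% of all genes were lower and 30.6% higher. The 2 that rose were Pcna, the sliding clamp that holds DNMT1 at the fork (209 ± 22.6 to 292 ± 44.4 CPM, log2 0.48, adjusted p = 0.000960), and Hells, a remodeller needed for methylation of heterochromatin (log2 0.35, adjusted p = 0.00146). The largest falls were Zfp57, which protects methylation at imprinted genes (log2 −0.96, adjusted p = 0.00912), and Ehmt2, a histone methyltransferase (215 ± 5.65 to 122 ± 16.5 CPM, log2 −0.81, adjusted p = 8.32e-07). With GC and length trends removed, 9 were lower and 1 higher, where 4182 and 5058 of all 18438 genes tested were. On a list of 8 genes from families of methyl-CpG-binding proteins, Mbd3 included, 6 were lower, none higher and 2 not called (median −0.37), against the same 29.0% and 30.6%. Binding to methylated sites by each member was not examined. Zbtb4, a zinc finger protein of this list, had a log2 fold change of −0.68 (adjusted p = 0.00647).

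On the demethylation side, 8 of 10 partners of the TET proteins were tested, 5 were lower, 1 higher and 2 not called (median −0.64), where 29.0% of all genes were lower and 30.6% higher. Cxxc5, a CpG-binding protein known as a regulator of TET2, fell by 1.10 on the log2 scale (116 ± 5.80 to 54.0 ± 11.9 CPM, adjusted p = 1.83e-06). Tfcp2l1 had a log2 fold change of −1.73 at a low level (7.67 ± 3.24 to 2.30 ± 1.02 CPM, adjusted p = 0.000393), and Sinhcaf, a subunit of a SIN3 deacetylase complex, rose by 0.81 (adjusted p = 4.42e-07). A list of base excision repair, which removes oxidised cytosine, and of other factors linked to active demethylation had 6 of 18 tested genes higher, 8 lower and 4 not called (median −0.10), where 30.6% and 29.0% of all genes were higher and lower. Of the 6 higher genes, Tdg and Polb belong to base excision repair, and the other 4 are Gadd45a, Gadd45b, Gadd45g and Gadd45gip1, named here after their values were seen except for Gadd45a and Gadd45gip1. Gadd45a, a stress-induced protein linked to demethylation, rose by 0.79 (adjusted p = 0.0229), and the glycosylase gene Neil1 changed by −0.76 (adjusted p = 0.000293). Neil2, another glycosylase gene, was called lower and lay at 0.697 ± 0.237 CPM in CTRL and 0.126 ± 0.103 CPM in CML 2wk, near the level of a few counts. Gadd45gip1, a mitochondrial ribosome protein that binds GADD45 proteins, rose by 0.71 (adjusted p = 0.000696).

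Of the 18 tested genes of the S-adenosylmethionine cycle, which supplies the methyl group, 11 were higher, 5 lower and 2 not called (median 0.29), where 30.6% of all genes were higher and 29.0% lower. With GC and length trends removed, 2 were lower, where 4182 of all 18438 genes tested were. Mthfd2, of mitochondrial folate metabolism, rose by 1.06 on the log2 scale (26.6 ± 3.18 to 55.7 ± 38.6 CPM, adjusted p = 0.00548), with a wide spread in CML 2wk, and Cbs rose by 0.84 at a low level (0.852 ± 0.151 to 1.53 ± 0.317 CPM, adjusted p = 0.00330). Ahcyl1 changed by −0.55 (adjusted p = 5.80e-06). Of 26 genes that make or use 2-oxoglutarate and related acids, 15 were higher, 4 lower and 7 not called (median 0.27), against the same shares of all genes. Adhfe1, which can form 2-hydroxyglutarate, rose by 2.06 from 0.411 ± 0.156 to 1.72 ± 0.592 CPM (adjusted p = 4.32e-05), and Bcat1, which transfers amino groups to 2-oxoglutarate, rose by 1.91 with a CML 2wk SD as large as its mean (3.23 ± 1.08 to 12.2 ± 12.6 CPM, adjusted p = 0.00347). Ogdh, which consumes 2-oxoglutarate in the citric acid cycle, and Sdha, a subunit of succinate dehydrogenase, changed by −0.64 and −0.40 (adjusted p = 5.45e-06 and 0.000342).

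Germline genes that methylation keeps silent in body cells gave little to read. Of 20, 5 had no count in any library and 4 passed the filter. Of those 4, 1 was lower, none higher and 3 not called, where 29.0% of all genes were lower and 30.6% higher. Ddx4, the germ cell helicase gene, was the one called, at 10.01 ± 2.84 CPM in CTRL and 2.38 ± 1.61 CPM in CML 2wk (log2 −2.05, adjusted p = 0.000271).

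**Figure D5:**
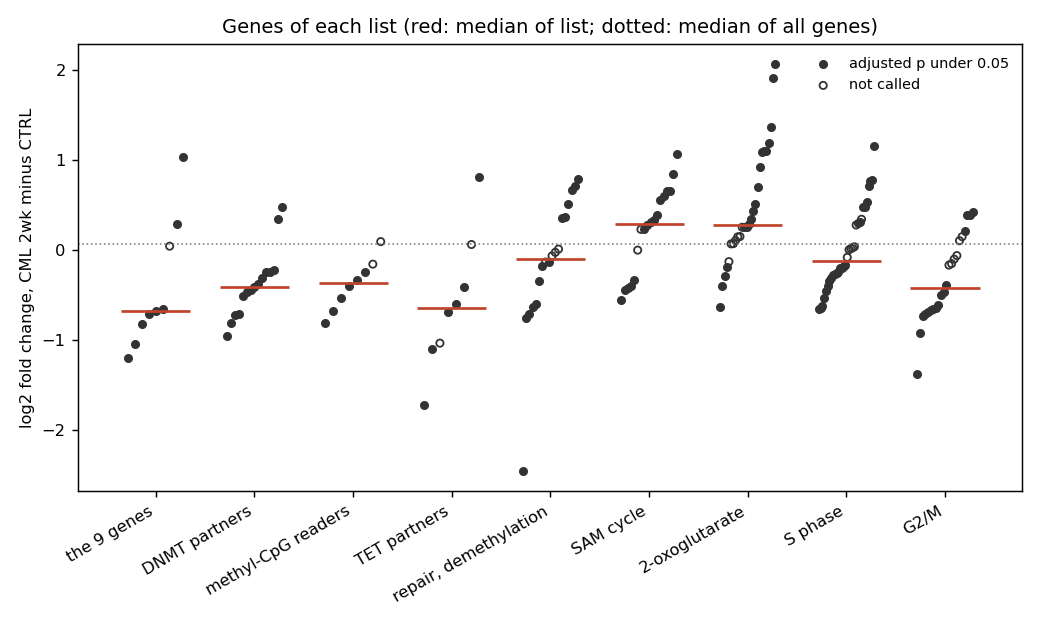
Log2 fold change (CML 2wk minus CTRL) of every tested gene of the 9 and of 8 lists around DNA methylation and the cell cycle, filled where the adjusted p is under 0.05, with the median of each list in red and that of all genes (0.07) dotted. Medians run from −0.68 for the 9 genes to 0.29 for the S-adenosylmethionine cycle.

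Over the 12 libraries with group means subtracted, Dnmt1 correlated with Dnmt3b (Pearson's r 0.91), Uhrf1 (0.87) and Tet1 (0.81), and Dnmt3b with Tet1 (0.89). Idh1 ran against Tet1 (−0.81) and Tet3 (−0.75), and Tet2 had almost no relation with Tet1 (0.0053). These values describe 12 libraries that share donor pool, scaling and the wider spread of CML 2wk. Among 10158 other genes with a mean of at least 3 log2 CPM, the nearest to Dnmt1 were Ticrr (0.97) and Pole (0.96), and the nearest to Uhrf1 were Zfp740 (0.94) and Cbx5 (0.92). Dnmt3a was nearest to Clec16a (0.90) and Ncor1 (0.89), and Dnmt3b to Asxl1 and Smc5 (0.94 each). Tet1 was nearest to Pik3c2b (0.97) and Chd3 (0.95), Tet2 to Clcn6 (0.95), and Tet3 to Rai1 (0.98) and Mtx3 (0.97). Idh1 was nearest to Eif2b2 and Mpo (0.98 each), the latter the myeloperoxidase gene of early granulocytic cells, and Idh2 to Fam192a (0.99) and Akr1a1 (0.98).

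Counts of marker genes are to be read against the 30.6% of all genes called higher and the 29.0% called lower. The LSK markers were present in every library, and of 11, 2 were higher and 8 lower, with summed levels of 2920 to 3292 CPM in CTRL and 1954 to 2436 CPM in CML 2wk. Kit, used in the sort, had a log2 fold change of −0.86 (adjusted p = 4.68e-06), and Ly6a, which encodes Sca-1, one of 0.38 (adjusted p = 0.0660). Mast cell and basophil genes (6 of 8 higher) summed to 99.4 to 198 CPM in CTRL and 424 to 2483 CPM in CML 2wk, and monocyte genes (4 of 10 higher, 1 lower) to 382 to 642 and 610.3 to 1303 CPM. Granulocyte genes (4 of 9 higher, 4 lower) summed to 2317 to 4653 and 3109 to 8527 CPM, erythroid genes (7 of 9 lower) to 108 to 196 and 24.4 to 67.0 CPM, and megakaryocyte genes (5 of 5 lower) to 288 to 334 and 95.8 to 258 CPM. B cell genes (2 of 7 lower) summed to 29.997 to 111 and 25.5 to 80.8 CPM, T and NK genes (2 of 6 tested higher, 1 lower) to 89.4 to 118 and 95.8 to 206 CPM, and stromal genes (4 of 10 tested higher) to 226 to 280 and 179 to 3090 CPM. The part of these cells in the changes of the 9 genes was not tested. Without CML 2wk replicates 2 and 4 together, the 9 genes gave 6 lower and 2 higher, where 6061 of 18946 genes tested were lower and 6069 higher.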

How the data were processed

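Bulk RNA-seq of 12 LSK libraries (6 CTRL, 6 CML 2wk, grouped by the labelled treatment) was analysed. The authors deposited raw counts per Ensembl gene, one table per library, without normalization. The submitters' processing notes name FastQC 0.11.9, fastp 0.23.2, STAR 2.7.10a, featureCounts 2.0.1, DESeq2 1.36.0 and mm39/GRCm39, while the study's methods name Trim Galore!, HISAT2, featureCounts and a human build. The annotation, strand setting and treatment of multiply mapped reads are not given in the sources used here. Identifiers were matched to symbols for 52073 of 56748, and 0 entries named no gene. Without a stated strand setting, reads of Dnmt3a and Dnmt3aos (133 shared exon bases, 16 to 46 counts of the latter) and of Tet2 and Gm42567 (43 bases, 0 to 6 counts) cannot be told apart. Coordinates are GRCm38, the build of the reference, not that of the counts.

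Counts were tested with edgeR 4.0.16 in R 4.3.3 (TMM factors, filterByExpr, quasi-likelihood test, Benjamini-Hochberg over 18438 genes, threshold 0.05). Levels are CPM with TMM factors, and ratios are log2 CPM with a prior count of 2, tested two-sided over all 924 splits into 6 and 6. Lengths are exon unions of GENCODE M21, and GC content is that of the longest transcript. limma 3.58.1, DESeq2 1.42.0, other factors, filters, a replicate block, library number runs, other lengths and left-out libraries were alternatives, and removal of GC and length trends (values for 17803 genes), of mitochondrial genes and, for the list counts, of CML 2wk 2 and 4 together was added after seeing the data. Ratios and figures used Python 3.11.15 with matplotlib 3.10.9, pandas 2.3.3, scipy 1.17.1 and numpy 2.4.6.

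The genes named are the 9 members, at most the 2 largest called changes each way per list, the 2 genes nearest to each member, and the sorting markers. Of the genes this rule names, 3 are not reported here. Xist was named after its values were seen. The members and lists were chosen with earlier results of these data known. The main test was run on simulated CML 2wk and CTRL counts (18183 genes): it recovered 32 of 67 genes changed 1.5-fold, 48 of 67 changed 2-fold and 59 of 66 changed 4-fold, and called 7 of 17990 unchanged genes. The simulation gave both groups the same dispersion per gene and changed only these few genes. In the data the biological coefficient of variation was 10.8% in CTRL and 32.6% in CML 2wk, and 59.5% of genes were called. The simulated rates therefore need not hold for these data. No pair of libraries agreed within sampling noise (lowest chi-square per degree of freedom 3.992). Limits from counts cover counting error only.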

Additional observations from a re-analysis of the deposited data

Results flagged for a closer look

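Idh1 in CTRL replicate 2 stood apart from its group, at 27.8 CPM where the next lowest library had 32.1 CPM, a gap of 0.675 of the group's range, past Dixon's 95% limit for 6 samples. It was 1 of 32 groups of values examined, where chance gives about 1.6. The same library was also lowest of its group for Dnmt1, Uhrf1 and Idh2.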

How the results depend on the processing

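Over 23 alternatives, Dnmt1, Uhrf1, Dnmt3a, Dnmt3b, Tet1 and Idh1 kept direction and call. Log2 fold changes ran from −1.30 to −0.57 for Dnmt1, −0.80 to −0.44 for Uhrf1, −0.97 to −0.32 for Dnmt3a, −1.13 to −0.32 for Dnmt3b, −1.53 to −1.02 for Tet1, 0.05 to 0.53 for Tet2, −0.97 to −0.11 for Tet3 and 0.76 to 1.34 for Idh1. Tet2 lost its call with the library number run as a term and Tet3 with GC and length trends removed. Idh2, not called, changed sign without a filter on low counts (−0.030), and over left-out libraries ran from −0.0045 to 0.0873.

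With the run term, 2176 genes were higher and 2468 lower, and 1 of the 9 was higher. Upper-quartile factors gave 1 higher methyl-CpG reader, 2 lower 2-oxoglutarate genes and 10 lower S-phase genes. Of all 18438 genes, 6352 were then higher and 4752 lower. Without a filter, 3 TET partners were higher, where 5393 of 34929 genes were. Without CML 2wk 2 and 4 together, 1 germline gene was higher, where 6069 of 18946 genes were. With GC and length trends removed, 1 methyltransferase partner and 2 TET partners were higher, and 2 genes of the S-adenosylmethionine cycle and 5 S-phase genes were lower. Of all 18438 genes, 5058 were higher and 4182 lower in that setting. The difference of Dnmt3b to Dnmt3a was −0.021 there. Over left-out libraries that difference ran from 0.11 to 0.21. The cause was not tested.

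By coding length, CTRL ranks were Uhrf1 1, Dnmt1 2, Dnmt3a 4 and Dnmt3b 6, and CML 2wk ranks Dnmt3a 5, Dnmt3b 7 and Tet2 8. By the longest transcript, CTRL ranks were Idh2 2, Uhrf1 3, Tet2 8 and Tet1 9.

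Replicate numbers are shared by label only: same-numbered libraries correlated between −0.125 and 0.0679, and only CTRL replicate 1 was closest to its own number. The replicate block called 4786 genes higher and 5189 lower and changed no call of the 9 genes. Paired, the smallest exact permutation p possible was 0.03125.

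Sex in the labels cannot be told apart from BCR::ABL1. Library number runs are shared by both groups in replicate 6 alone, on which the fit with the run term rests, and depth was mostly lower in CML 2wk, with overlapping ranges. At this depth every member had at least 701 counts in each library. The part of counting error in the spread between libraries was not tested, and for Tet3 in CTRL that spread was only 2.23% (SD over mean).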
